A study of Mus musculus with 6 samples.

Results

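The data described here are the RNA levels of 9 genes in whole embryonic mouse kidneys, namely the metalloproteinase inhibitors Timp1, Timp2 and Timp3, the matrix metalloproteinases Mmp2, Mmp9, Mmp11, Mmp14 and Mmp15, and the membrane-anchored inhibitor Reck. The 9 genes were picked by name from a table of 22394 genes, and all 9 were present and tested. They were chosen by their FPKM in the same 3 control and 3 mutant libraries that are compared below, so every difference between the groups for these genes is given as a description, and the p-values of the fit over the whole table are printed beside them only to place them in it. FPKM express reads per length of gene and per depth of library. Kidneys were taken at E13.5. The paired kidneys of a mouse were used whole. The 3 mutants, Foxd1Cre;Ptch1 (flox/-), had a floxed Ptch1 allele over a null allele together with the Cre driver, and the 3 controls, Ptch1 (flox/+), were littermates whose floxed allele stood over a wild-type one. Foxd1 drives Cre in the progenitors of the renal stroma, while the null allele was present in all cells of the mutants and Cre only in the mutants. A floxed Ptch1 allele was common to both groups. Ptch1 encodes the receptor that restrains Hedgehog signalling. P-values set the difference between the groups against the spread between libraries within them. The groups also differed in Y-linked RNA, as given below, so the p-values are not tied to genotype alone.

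Matrix metalloproteinases are zinc enzymes that cut collagens, laminins, proteoglycans and other matrix proteins. TIMPs block their active sites, and RECK restrains several of them at the cell surface. MMP14 is a membrane protease that, with TIMP2 as an adaptor, activates the secreted gelatinase MMP2, and this trio is known from studies of ureteric bud branching. TIMP3 differs from its relatives in that it is held in the matrix and also inhibits ADAM and ADAMTS proteases.

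Depth ranged from 13261588 to 47847925 reads per library. The targeted gene Ptch1 was at 8.26, 7.91 and 7.60 FPKM in controls 1 to 3 and at 23.5, 35.8 and 29.8 FPKM in mutants 1 to 3. These values cover the gene as a whole and so are no check of its deletion. Control 2 stood apart from the other libraries on the first principal component (75.8 against -24.6 to 8.49) and gave 0.367% of its reads to mitochondrial genes, against 1.21% to 2.12% elsewhere. Ddx3y, which is Y-linked, was at 17.8 FPKM in control 2, at 13.9 to 16.2 FPKM in the mutants and at 0.0177 and 0.0598 FPKM in controls 3 and 1, so the libraries with Y-linked RNA were 1 control and 3 mutants. Xist, which is X-linked, was at 6.19 FPKM in mutant 3, at 0.0471 to 0.206 FPKM in the other libraries with Y-linked RNA and at 53.3 and 72.9 FPKM in controls 3 and 1. The limma differences of the 9 genes are given with and without control 2. Without it, the controls left are 1 and 3, both low in Ddx3y and high in Xist. In each fit without control 2, genotype and sex-linked RNA therefore cannot be told apart. In whole kidneys, fewer cells of a type and less RNA per cell cannot be told apart. The labelled tissue was borne out by its markers, with nephron progenitor genes summing to 360 to 470 FPKM and renal stroma genes to 642 to 1240 FPKM over the 6 libraries. The stroma sum was 558 to 855 FPKM without the collagen gene Col3a1. Skeletal muscle genes were also present, summing to 45.5 to 77.8 FPKM in controls and 11.8 to 20.9 FPKM in mutants.

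Mmp14 was the most abundant of the 9 genes and Mmp9 the least. Mean FPKM over the 6 libraries was above that of 97.7% of the genes in the table for Mmp14, 95.9% for Mmp2, 93.0% for Timp2, 88.0% for Mmp11, 85.4% for Timp3, 77.4% for Timp1, 75.1% for Reck, 74.5% for Mmp15 and 27.7% for Mmp9. The order was firm at its ends. Mmp14 exceeded Mmp2 in 6 of 6 libraries, Timp2 exceeded Mmp11 in 6 of 6 and Mmp15 exceeded Mmp9 in 6 of 6. Neighbours in the middle did not differ beyond their spread: Reck exceeded Mmp15 in 3 of 6 libraries, Timp1 exceeded Reck in 4 of 6 and Mmp11 exceeded Timp3 in 4 of 6, with Timp3 above Mmp11 in mutants 1 and 3 (36.2 against 22.6 FPKM and 35.1 against 35.0 FPKM).

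**Figure D1:**
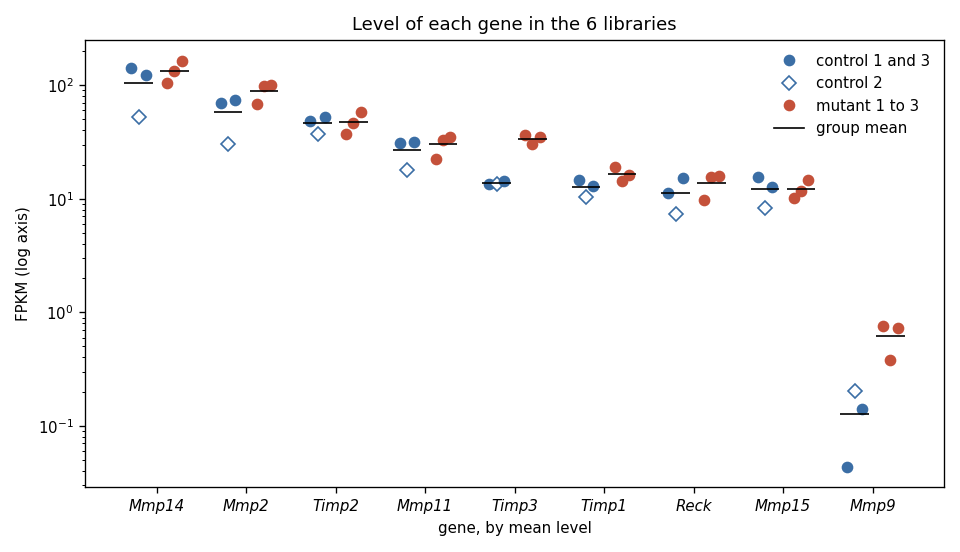
FPKM on a log axis for each gene in every library, ordered by mean level, with controls in blue, mutants in red, control 2 as an open diamond and group means as black lines. Timp3 and Mmp9 are the genes whose 3 mutant points all lie above the 3 control points, and control 2 is the lowest point for 8 of the 9 genes.

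Timp3 was about 2.5 times as high in mutant as in control kidneys, while Timp1 and Timp2 differed little. In controls 1 to 3 Timp3 (ENSMUSG00000020044.13, chromosome 10, 86300372 to 86349506, plus strand, GRCm38) was at 13.6, 13.4 and 14.3 FPKM, and in mutants 1 to 3 at 36.2, 30.3 and 35.1 FPKM. The groups were far apart against a narrow spread, with controls at 13.8 ± 0.503 FPKM and mutants at 33.9 ± 3.14 FPKM (SD, n = 3 each). The ratio of the means was 2.46, which on the log2 scale was a difference of 1.29 (SE 0.12) with an adjusted p of 0.00529 in limma. Leaving out control 2 gave 1.27 (SE 0.13) and an adjusted p of 0.00266 in limma. The authors' deposited table gave 1.30 (SE 0.18) with an adjusted p of 3.26e-10.

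Timp2, the most abundant of the 3 inhibitors in every library and the adaptor for MMP2 activation, showed no such separation. It was at 48.5, 37.0 and 53.0 FPKM in controls 1 to 3 and at 37.3, 46.7 and 58.3 FPKM in mutants 1 to 3. The lowest and the second lowest library came from different groups, and the ranges overlapped almost fully. Its log2 fold change in limma was 0.03 (SE 0.20; adjusted p = 0.963), and -0.12 (SE 0.18) without control 2. Timp1, a soluble inhibitor, was at 14.5, 10.3 and 13.0 FPKM in controls and at 18.9, 14.2 and 16.1 FPKM in mutants. Its groups overlapped through mutant 2 and control 1, and limma put the log2 fold change at 0.39 (SE 0.19; adjusted p = 0.549), or 0.25 (SE 0.18; adjusted p = 0.737) without control 2. Timp1 (chromosome X, 20870166 to 20874735, plus strand) is X-linked, and the groups differed in Y-linked RNA and Xist as given above; the part of this in its values was not tested.

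The make-up of Timp RNA differed accordingly. Of the summed FPKM of the 3 genes, Timp3 made up 17.7%, 22.1% and 17.9% in controls 1 to 3 and 39.2%, 33.2% and 32.1% in mutants 1 to 3. Timp2 made up 61.0% to 66.0% in controls and 40.3% to 53.3% in mutants, and Timp1 14.7% to 20.5% across all 6 libraries. The sum of the 3 genes was 76.6, 60.7 and 80.3 FPKM in controls and 92.4, 91.2 and 109 FPKM in mutants. Both the Timp3 share and this sum were higher in each mutant than in any control.

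Timp1 and Timp3 each lie inside a synapsin gene on the opposite strand, and no source used here gives the strand setting of the counting. Timp3 shares 1733 of its 8144 annotated exon bases with Syn3 (chromosome 10, 86055125 to 86498896, minus strand). Syn3 was at 0.393, 0.677 and 0.528 FPKM in controls 1 to 3 and at 0.821, 0.924 and 0.797 FPKM in mutants 1 to 3, and reads of the shared exons cannot be told apart. Timp1 shares 0 exon bases with Syn1 (chromosome X, 20860511 to 20921004, minus strand), which was at 0.0843 to 0.205 FPKM over the 6 libraries. Syn2, the third synapsin gene, was at 0.116 to 0.207 FPKM in controls and 0.252 to 0.347 FPKM in mutants (adjusted p = 0.515 in limma). Elsewhere among the 9 genes, Mmp11 shares 155 exon bases with Chchd10 on the opposite strand, which was at 10.5 to 20.1 FPKM in controls and 11.2 to 31.3 FPKM in mutants. Timp2 contains Cep295nl (0.123 to 0.192 FPKM) and Reck contains the short RNA gene Gm27265, each on the same strand with 0 exon bases shared.

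The stretches just upstream of the RefSeq starts of the 3 Timp genes are shown because these paralogues differed in how their RNA compared between the genotypes. Each is the 250 bases before the gene's start in RefSeq (GRCm38.p6), read 5′ to 3′ on the gene's strand, at chrX:20869916-20870165 (plus) for Timp1, chr11:118355412-118355661 (minus) for Timp2 and chr10:86300162-86300411 (plus) for Timp3. In GENCODE the end of each window lies inside a transcript. By GENCODE positions the Timp2 window lies wholly inside Timp2 (118301069 to 118355740), and the Timp3 window runs past the start of Timp3 at 86300372. The Timp1 window ends just before Timp1 (20870166) and lies inside the span of Syn1. Capitals mark the GC box GGGCGG or its reverse complement CCGCCC.
Timp1: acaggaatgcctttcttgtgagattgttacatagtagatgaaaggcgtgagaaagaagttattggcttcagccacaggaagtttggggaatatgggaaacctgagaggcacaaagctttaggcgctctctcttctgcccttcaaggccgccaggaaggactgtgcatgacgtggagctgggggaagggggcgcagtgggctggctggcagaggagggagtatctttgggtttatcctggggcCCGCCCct
Timp2: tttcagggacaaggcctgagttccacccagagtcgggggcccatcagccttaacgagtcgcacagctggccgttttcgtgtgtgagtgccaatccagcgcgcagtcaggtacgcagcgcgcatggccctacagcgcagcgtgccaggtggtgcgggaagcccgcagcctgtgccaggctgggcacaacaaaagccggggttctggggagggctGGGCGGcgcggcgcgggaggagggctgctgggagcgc
Timp3: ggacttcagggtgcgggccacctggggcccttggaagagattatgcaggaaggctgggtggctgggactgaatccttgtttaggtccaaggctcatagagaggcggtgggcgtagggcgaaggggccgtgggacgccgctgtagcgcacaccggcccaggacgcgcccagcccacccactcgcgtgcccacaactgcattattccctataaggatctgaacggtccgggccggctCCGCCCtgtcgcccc
One GC box was found in each, beginning 8 bases before the start in Timp1, 37 in Timp2 and 15 in Timp3. Such a box occurred in the windows of 7 of 7 matched genes (Timp1, Timp2, Timp3, Mmp11, Mmp14, Mmp15 and Reck) and in 32.7% of all 32851 promoter windows. CpG dinucleotides numbered 6 in the Timp1 window, 21 in Timp2 and 18 in Timp3, more than in 49.6%, 83.7% and 78.3% of all windows. The GLI motif TGGGTGGTC, searched on both strands, was in 0 of the 7 windows and in 0.225% of all windows. The AP-1 motif TGANTCA was in 0 of the 7 and in 6.75% of all windows. Mmp2 and Mmp9 were not analysed here for promoter sequence.

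Mmp14 and Mmp2, the membrane activator and the gelatinase it activates, had higher means in mutants, but their groups overlapped and most of the difference was gone without 1 control library. Mmp14 (chromosome 14, 54431612 to 54445364, plus strand) was at 141, 52.4 and 122 FPKM in controls 1 to 3 and at 104, 134 and 165 FPKM in mutants 1 to 3. Control 2 was the low value, and mutant 1 lay below controls 1 and 3. In limma the log2 fold change was 0.45 (SE 0.35; adjusted p = 0.646), and 0.01 (SE 0.20; adjusted p = 0.994) when control 2 was left out. Mmp2 (chromosome 8, 92827291 to 92853420, plus strand) was at 70.3, 30.6 and 74.4 FPKM in controls and at 68.0, 98.9 and 101 FPKM in mutants. Here too control 2 was far below the rest, and mutant 1 lay just below controls 1 and 3. The limma estimate of 0.70 (SE 0.33; adjusted p = 0.541) became 0.28 (SE 0.18; adjusted p = 0.703) without it. Both genes were past the threshold in the authors' deposited table, Mmp14 at 0.85 (adjusted p = 0.00276) and Mmp2 at 1.01 (adjusted p = 0.00201). Those estimates were larger than the limma ones. They were also larger than the ratios of mean FPKM give, 1.28 for Mmp14 and 1.53 for Mmp2. The source of this gap was not tested.

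**Figure D2:**
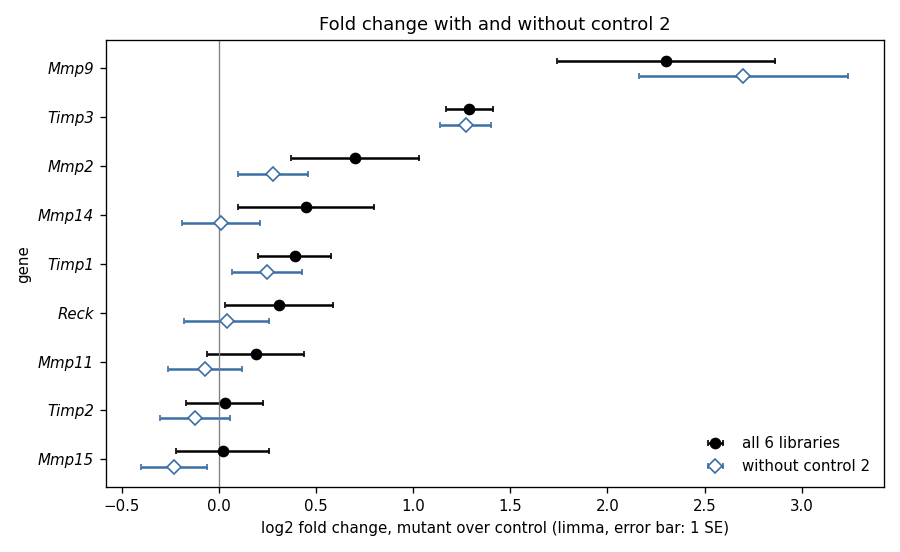
Log2 fold change of each gene, mutant over control, from limma with all 6 libraries (black circles) and without control 2 (open diamonds), with bars of 1 SE. Timp3 stays near 1.3 in both fits, while Mmp14 moves from 0.45 to 0.01 and Mmp2 from 0.70 to 0.28.

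Relative to Timp2 in the same library, Mmp14 RNA was nearly constant in the mutants, at ratios of 2.80, 2.86 and 2.83, and spread more widely in controls 1 to 3, at 2.90, 1.42 and 2.30. The ratio of Mmp2 to Timp2 was 1.45, 0.825 and 1.40 in controls and 1.82, 2.12 and 1.74 in mutants, so that each mutant lay above each control. For Mmp2 to Mmp14 the ratio was 0.5, 0.583 and 0.611 in controls and 0.652, 0.740 and 0.615 in mutants, again without overlap but with mutant 3 next to control 3. The ratio of Timp3 to Timp2 was 0.280, 0.362 and 0.271 in controls and 0.972, 0.649 and 0.602 in mutants. No test was made of these ratios, which rest on the values that chose the genes.

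**Figure D3:**
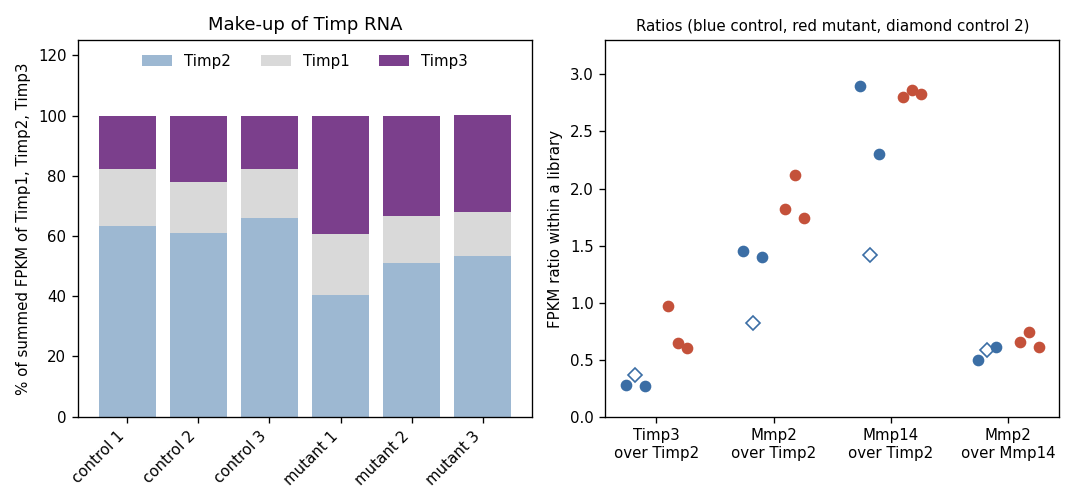
Left, share of the summed FPKM of Timp1, Timp2 and Timp3 taken by each gene in every library; Timp3 takes 17.7% to 22.1% in controls and 32.1% to 39.2% in mutants. Right, FPKM ratios within a library, with controls in blue, mutants in red and control 2 as an open diamond; the 3 mutants sit between 2.80 and 2.86 for Mmp14 over Timp2.

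Mmp9, the second gelatinase, was near the limit of detection in controls and higher in mutants. Its read numbers were 3, 16 and 11 for controls 1 to 3 against 53, 16 and 110 for mutants 1 to 3, which came to 0.0433, 0.201 and 0.141 FPKM and to 0.761, 0.377 and 0.724 FPKM. All mutants lay above all controls, although mutant 2, the shallowest library, held as many reads as control 2. Limma gave a log2 fold change of 2.30 (SE 0.56; adjusted p = 0.211), or 2.70 (SE 0.54; adjusted p = 0.0575) without control 2, and the authors' deposited table has 1.87 (SE 0.73; adjusted p = 0.131). Mmp9 is also made by macrophages and granulocytes. Of 16 markers of those cells, 11 were tested, 11 had positive fold changes and 0 were called in limma (7 at an unadjusted p under 0.05, 0 in the authors' deposited table). Over all genes tested, 9.63% had an unadjusted p under 0.05. The summed level of the macrophage and granulocyte markers was 24.8 to 29.1 FPKM in controls and 32.2 to 50.9 FPKM in mutants. The granulocyte genes Mpo, S100a8 and S100a9 were at 0 in 1 to 2 libraries each and at no more than 0.322 FPKM in any. The part of such cells in the Mmp9 difference was not tested.

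The remaining proteases, Mmp11 and Mmp15, had similar means in both groups. The mean of Reck was 11.3 FPKM in controls and 13.8 FPKM in mutants. Mmp11, which is activated inside the cell by furin, was at 31.1, 18.1 and 31.5 FPKM in controls and at 22.6, 33.1 and 35.0 FPKM in mutants (limma log2 difference 0.19, SE 0.25, adjusted p = 0.782). For Mmp15, a membrane protease related to Mmp14, the controls were at 15.4, 8.26 and 12.8 FPKM and the mutants at 10.1, 11.6 and 14.6 FPKM (limma log2 difference 0.02, SE 0.24, adjusted p = 0.977). Both had control 2 as the lowest library, and without it their log2 fold changes were -0.07 (SE 0.19) and -0.23 (SE 0.17). Reck was at 11.3, 7.41 and 15.3 FPKM in controls and at 9.84, 15.7 and 15.9 FPKM in mutants (limma log2 difference 0.31, SE 0.28, adjusted p = 0.681), and that difference was 0.04 (SE 0.22) without control 2. In each of these 3 genes the ranges of the groups overlapped.

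Counted over all genes, 1 of the 9 genes, Timp3, was called in limma at an adjusted p under 0.05, against 0.307% of the 16933 genes tested (0.219% called higher in mutants). The groups did not overlap for 2 of the 9, Timp3 and Mmp9, against 16.7% of tested genes in either direction and 7.57% with mutants higher. The authors' deposited table called 3 of the 9, all higher (Timp3, Mmp2 and Mmp14), against 4.61% of the 15881 genes it gave an adjusted p (3.07% higher). All 9 log2 fold changes were positive, against 49.1% of tested genes, with a median of 0.39 against -0.01 over all genes tested. Without control 2 the median was 0.04, against -0.02. Since this contrast chose the genes, nothing is read from these counts.

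Control 2 was the lowest library for 8 of the 9 genes, all but Mmp9, and for 28.0% of all genes tested. Its level relative to the mean of controls 1 and 3 was 0.399 for Mmp14, 0.422 for Mmp2, 0.557 for Reck, 0.580 for Mmp11, 0.586 for Mmp15, 0.730 for Timp2, 0.746 for Timp1 and 0.961 for Timp3. The summed level of 25 matrix genes, the substrates of these proteases, was 543 FPKM in control 2 against 1460 and 1630 FPKM in controls 1 and 3, and 1560, 2000 and 2890 FPKM in mutants 1 to 3. Of these 25, 22 had positive fold changes and 0 were called in limma (9 at an unadjusted p under 0.05, 17 in the authors' deposited table), with a median log2 fold change of 0.53 that was 0.11 without control 2. The 3 most abundant were Col1a1 (log2 fold change 1.41, SE 0.65), Col3a1 (1.08, SE 0.46) and Col1a2 (1.17, SE 0.49). Renal stroma markers summed to 642 FPKM in control 2 and 863 to 1240 FPKM in the other 5 libraries. Col3a1 is in both lists. Without it, a sum taken after the values were seen, the other 9 stroma markers came to 846, 558 and 855 FPKM in controls 1 to 3 and 593, 689 and 711 FPKM in mutants 1 to 3, so control 2 was near mutant 1 and each mutant lay below controls 1 and 3. By contrast, ureteric bud markers summed to 250 FPKM in control 2, 139 and 121 FPKM in controls 1 and 3 and 169 to 320 FPKM in the mutants. The part of cell composition in the low Mmp2 and Mmp14 of control 2 was not tested.

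Of 14 endothelial markers, 4 were called higher in limma (Tie1, Emcn, Esam and Cldn5) and 11 in the authors' deposited table. All 14 had positive fold changes, with a median of 0.96 on the log2 scale. Without control 2, limma called 7 and the median was 0.84. Tek (0.68), Erg (0.39) and Sox17 (0.33), picked out after their values were seen, had overlapping groups and were called in neither table. The summed level of all 14 endothelial markers was 172, 152 and 171 FPKM in controls 1 to 3 and 289, 301 and 363 FPKM in mutants 1 to 3, with no marker at 0. As a percentage of that sum, Timp3 was at 7.88%, 8.85% and 8.38% in controls and at 12.5%, 10.1% and 9.66% in mutants, higher in each mutant than in any control. Smooth muscle and pericyte markers summed to 142 to 170 FPKM in controls and 214 to 264 FPKM in mutants. Of these 9 markers, 0 were called in limma (6 at an unadjusted p under 0.05, 5 in the authors' deposited table), and 2 without control 2. As a percentage of that sum, Timp3 was at 7.88% to 9.55% in controls and 13.7% to 14.1% in mutants. The part of these cells in the Timp3 difference was not tested. Among other markers, podocyte genes summed to 14.2 to 37.8 FPKM in controls and 21.5 to 28.1 FPKM in mutants, and skeletal muscle genes, 4 of which were called lower in limma, to 45.5 to 77.8 FPKM in controls and 11.8 to 20.9 FPKM in mutants.

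**Figure D4:**
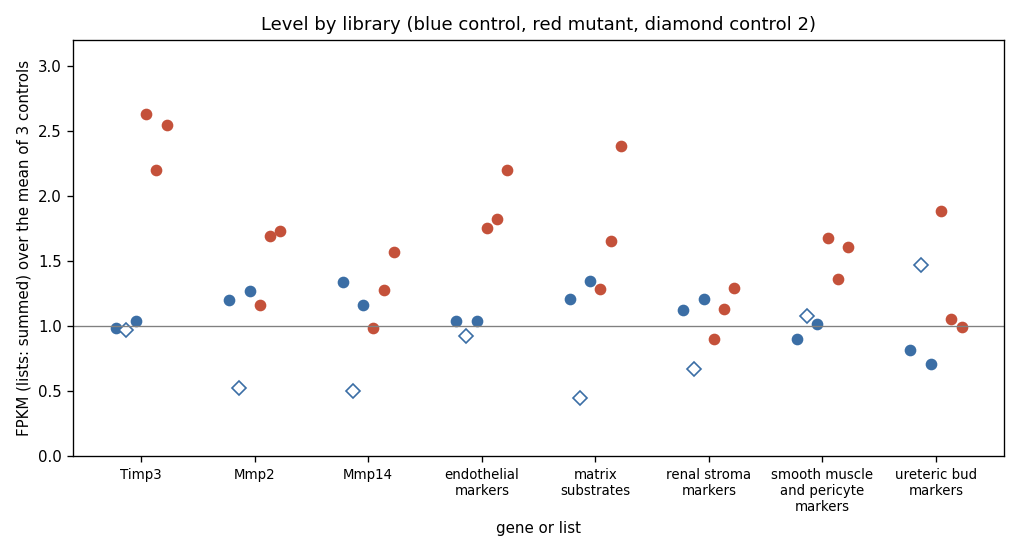
FPKM of Timp3, Mmp2 and Mmp14, and summed FPKM of 5 gene lists, each divided by its mean over the 3 controls, with controls in blue, mutants in red and control 2 as an open diamond. Control 2 is lowest for Mmp2, Mmp14, the matrix substrates and the renal stroma markers (both lists hold Col3a1). It is also lowest, by less, for Timp3 and the summed endothelial markers. Timp3, the endothelial markers and the smooth muscle and pericyte markers are each higher in all mutants than in all controls.

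The genes whose pattern over the 6 libraries lay nearest to each of the 9 were found among 12383 protein-coding genes by the root mean square difference of centred log2 values. For Timp3 these were Procr (0.0996) and Emcn (0.121). Procr was at 2.34, 2.06 and 2.40 FPKM in controls 1 to 3 and at 6.52, 5.86 and 6.36 FPKM in mutants 1 to 3. Nearest to Mmp2 were Nr2f1 (0.103) and Foxp2 (0.109), to Mmp14 Nfib (0.0803) and Plod3 (0.0823), and to Reck Vcam1 (0.0736) and Galnt17 (0.0772). These 6 were all lowest in control 2, as in Nfib at 36.2, 13.7 and 31.7 FPKM in controls 1 to 3. For Timp1 they were Grina (0.0478) and Fuca1 (0.0483), for Timp2 Fut11 (0.0393) and Atp2b4 (0.0457), for Mmp11 Pcdhb19 (0.0587) and Kirrel (0.0639), and for Mmp15 Zc3h13 (0.0586) and Tmem104 (0.0587). Mmp9, whose own mean normalized count of 28.3 was below the limit of 50, had no close neighbour, with Tagln at 0.398 and Apela at 0.480. The part of its few reads in these distances was not tested.

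Among the rest of the MMP and TIMP family, no gene passed in limma. Of 19 further genes, 6 were tested and 0 were called (2 at an unadjusted p under 0.05, 1 in the authors' deposited table), with a median log2 fold change of 0.62, also without control 2. The closest was Mmp17, a membrane-anchored protease, at 1.08 to 1.27 FPKM in controls and 2.05 to 2.38 FPKM in mutants. Its groups were well separated, with a limma log2 difference of 0.88 (SE 0.17; adjusted p = 0.0936), and the authors' deposited table called it (adjusted p = 0.0247). Mmp28 was at 0.476 to 0.746 FPKM in controls and 0.848 to 2.15 FPKM in mutants (limma log2 difference 1.08, SE 0.38, adjusted p = 0.441). Mmp23 (0.36, SE 0.17), Mmp25 (0.93, SE 0.42), Mmp19 (0.16, SE 0.36) and Mmp16 (-0.17, SE 0.29) had overlapping groups. Timp4, Mmp13 and Mmp24 were below the filter, with Timp4 at 0.0363 to 0.0746 FPKM, and 10 others were not analysed here.

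Beyond that family, 54 genes of related proteolysis were listed, of which 51 were tested. Limma called 0 of them, with 10 at an unadjusted p under 0.05, whereas 14 were called in the authors' deposited table, all higher. Their median log2 fold change was 0.23, and -0.01 without control 2. Of the ADAM sheddases, 8 were tested and 7 had positive fold changes, and the most abundant were Adam10 (0.02, SE 0.17), Adam17 (0.14, SE 0.13) and Adam15 (0.46, SE 0.12). Of the ADAMTS matrix proteases, 18 were tested and 10 were positive, led in level by Adamts10 (0.27, SE 0.17), Adamts9 (0.32, SE 0.32) and Adamts1 (0.06, SE 0.28). The authors' deposited table called 5 of these higher, namely Adamts2, Adamts7, Adamts9, Adamts14 and Adamts15. These names were chosen after their values were seen.

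Of 12 tested genes of MMP activation and the plasmin system, 9 had positive fold changes, 0 were called in limma (2 at an unadjusted p under 0.05) and 3 were called higher in the authors' deposited table, namely Plau, Pcsk5 and Serpine2. The most abundant were the plasminogen activator Plat (0.06, SE 0.33), the protease inhibitor Serpine2 (0.49, SE 0.13) and the convertase Furin (0.06, SE 0.15). Plau, the urokinase gene, was at 6.01, 5.45 and 6.12 FPKM in controls and 9.01, 9.83 and 11.9 FPKM in mutants (limma log2 difference 0.80, SE 0.16, adjusted p = 0.106), and the authors' deposited table has an adjusted p = 0.00918 for it. Plau and Pcsk5 were named after their values were seen. Of 13 genes for proteins that bind MMPs or clear them, 10 were positive, 0 were called in limma (4 at an unadjusted p under 0.05) and 6 were called higher in the authors' deposited table (Cav1, Cd44, Cldn1, Lrp1, Thbs1 and Thbs2, named after their values were seen). The most abundant were Bsg (0.17, SE 0.16), Spock2 (-0.17, SE 0.19) and the caveolin gene Cav1 (0.92, SE 0.17, adjusted p = 0.091 in limma), which was called without control 2.

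**Figure D5:**
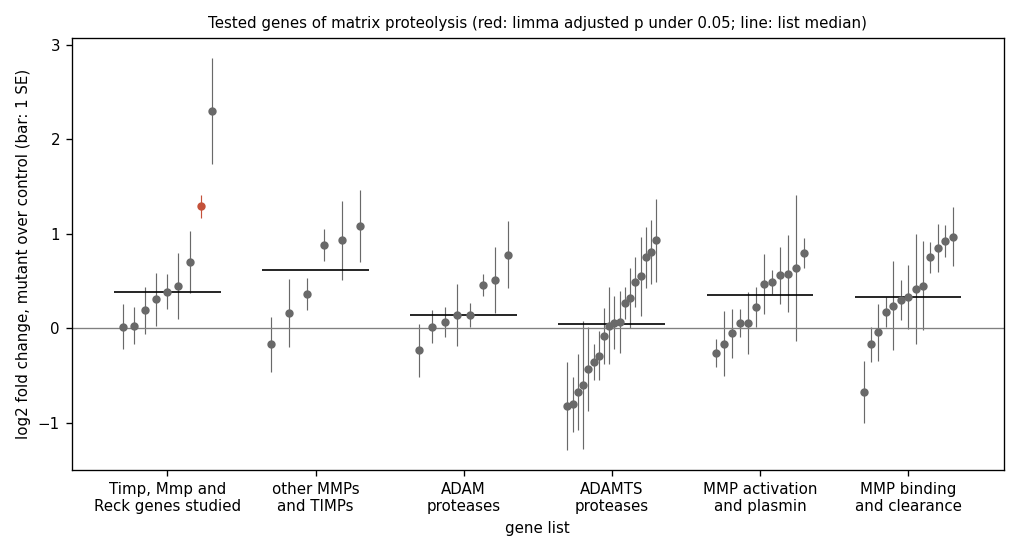
Log2 fold change, mutant over control, of each tested gene in 6 lists of matrix proteolysis, with bars of 1 SE and a black line at each list's median. Timp3 is the 1 gene in red, called in limma at an adjusted p under 0.05; the list medians lie between 0.05 and 0.62.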

How the data were processed

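RNA-seq libraries of whole E13.5 kidneys, made with an mRNA kit per the labels' protocols, 3 mutant and 3 control, were sequenced, and the authors deposited 1 table. Its library columns hold values the authors scaled to gene length and depth, taken here as FPKM from the values since no header names the unit. Per the file headers it also holds the authors' mean normalized signal, log2 fold change with its SE, Wald score, p-value and adjusted p-value. Trim Galore, STAR 2.6.0c, HTSeq 0.6.1p2, DESeq2 1.26.0s and mm10 are named in the submitters' processing notes, without role or order. Strand setting and annotation release are not given in the sources used here.

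Multiplying FPKM by mean normalized signal over mean FPKM removed the gene length; 100% of 134364 values were then whole reads within 1e-06 of a read. The main test across all genes was limma 3.58.1 (R 4.3.3) with trended variance and genotype as the sole term, on log2(normalized count + 1) of the 16933 genes that reached 10 normalized counts in 3 libraries. Benjamini-Hochberg adjusted p-values under 0.05 were called. All log2 differences carry that pseudocount of 1, so those of low genes are understated. The fit was first tested on simulated data. No count model was fitted. The authors' table stands beside the limma fit, and its fold changes differ from those of limma for some genes, among them Mmp14 and Mmp2. Positions came from GENCODE M21 (GRCm38, the assembly of mm10) for 99.8% of identifiers.

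The 9 genes and all lists were chosen with earlier results of these data known. The naming rule took the 9 genes, tested family members, synapsin genes, overlapping genes and the 2 nearest patterns each. It also took the called and up to 3 most abundant genes of each list. The 8 marker lists are instead given as summed FPKM. Besides nearest patterns, the genes named from them are the called endothelial ones, Tek, Erg, Sox17, Mpo, S100a8, S100a9, Col3a1 and Aldh1a2. Called skeletal muscle genes are counted but not named. Alternatives covered scale, pseudocount, filter, normalization, library weights, a replicate block and each library left out.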

Additional observations from a re-analysis of the deposited data

How the results depend on the processing

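Timp3 kept its direction and its limma call in all 14 refits, with log2 fold changes of 1.24 to 1.37 and adjusted p-values of 0.000524 to 0.0486. The number of the 9 genes called was 1 in each refit except with library weights, where it was 2 (Timp3 and Mmp9, the latter at an adjusted p of 0.0385), and 3 in the authors' deposited table. The iteration behind the library weights stopped short of its tolerance, so each count with weights rests on approximate weights. Over all genes tested, 52 were called, 380 with library weights and 732 in the authors' table. Leaving out 1 library gave 9 to 158 genes: controls 1 to 3 gave 15, 158 and 19 when left out, and mutants 1 to 3 gave 12, 9 and 13. Among other MMP and TIMP genes, 0 were called, and 1 (Mmp17) with library weights and 1 in the authors' table. Among the other proteolysis genes 0 were called, 5 with library weights (Adam15, Cav1, Cldn1, Plau and Serpine2), 14 in the authors' table, and 0 to 1 with a library left out (Cav1 without control 2). The sign turned without control 2 for Timp2 (-0.12), Mmp11 (-0.07) and Mmp15 (-0.23), and without mutant 3 for Timp2 (-0.13) and Mmp15 (-0.12). Over the libraries left out, the highest values were 0.19 for Timp2, 0.38 for Mmp11 and 0.22 for Mmp15. The causes of these shifts were not tested. Mmp9 had 3 to 16 reads in controls, so few reads set its precision. Its log2 fold change was 1.65 to 2.70 in the refits on normalized counts and 0.52 on the FPKM scale, where the added 1 exceeds each of its values; it could not be fitted among genes of at least 1 FPKM.

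With the sample number as a replicate block 17 genes were called, 16 of them among the 52, and Timp3 kept its call (adjusted p = 0.0338). Deviations of same-numbered libraries correlated at 0.000811, -0.098 and 0.309, and not every library correlated best with its own number. With 3 libraries centred on the mean of each group, these values cannot tell whether same-numbered samples share a litter.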

Other observations

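As a percentage of the summed FPKM of the 25 matrix genes, Mmp14 was at 9.66%, 9.65% and 7.48% in controls 1 to 3 and at 6.70%, 6.66% and 5.70% in mutants 1 to 3. On this scale control 2 was level with control 1, and each mutant lay below each control. This sum leans on a few collagen genes. Col1a1 alone was at 328, 63.0 and 365 FPKM in controls and at 319, 523 and 856 FPKM in mutants. The part of these collagens in the lower Mmp14 shares was not tested. Mmp2 was at 4.83%, 5.63% and 4.57% in controls and at 4.37%, 4.93% and 3.51% in mutants, with overlap. As a percentage of the summed renal stroma markers, Mmp2 was at 6.53%, 4.76% and 6.40% in controls and at 7.88%, 9.09% and 8.17% in mutants, so its groups did not overlap on that scale, while Mmp14 was at 13.1%, 8.16% and 10.5% and at 12.1%, 12.3% and 13.3%. Col3a1 is in both lists. Over the stroma markers without it, a choice made after seeing the data, Mmp14 was at 16.6%, 9.39% and 14.3% and at 17.6%, 19.4% and 23.2%, and Mmp2 at 8.31%, 5.47% and 8.71% and at 11.5%, 14.3% and 14.2%, without overlap for either gene. Aldh1a2, the most abundant stroma marker once Col3a1 is left out, was at 285, 229 and 323 FPKM in controls and at 166, 189 and 198 FPKM in mutants. It was lower in each mutant than in any control, and its part in these higher shares was not tested. None of the shares was tested.

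The ratio of Mmp14 to its relative Mmp15 was 9.15, 6.35 and 9.51 in controls 1 to 3 and 10.4, 11.5 and 11.3 in mutants 1 to 3. Timp2 over Reck, a pair of inhibitors, was at 4.29, 5.0 and 3.47 in controls and at 3.79, 2.97 and 3.67 in mutants. Mmp9 as a percentage of the summed macrophage and granulocyte markers was 0.175%, 0.754% and 0.484% in controls and 1.73%, 1.17% and 1.42% in mutants, higher in each mutant than in any control. The control values rest on 3, 16 and 11 reads of Mmp9. Its own FPKM were already higher in each mutant, so this share is not a separate result.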
